A study of Glycine max with 9 samples.

Results

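The 4 genes described here encode plastid omega-3 fatty acid desaturases of soybean (Glycine max): Glyma18g43210 and Glyma07g18350 were taken as FAD7, and Glyma03g07570 and Glyma01g29630 as FAD8. They were chosen by identifier from the 49777 genes of the expression table, and 4 of 4 were present in it. The table itself gives no gene names, so the family names rest on that choice. Leaf RNA was sequenced after 0, 1 and 24 h at 4 °C, with 3 libraries per time and at least 6 plants behind each library. The plants were seedlings of the cultivar Williams 82, 2 weeks old, raised at 20 °C under 18 h of light and 6 h of darkness, and the tissue was the unifoliate leaf, which could not be checked against marker genes because the identifiers carry no names. Chilling began 4 h after lights on, so the 24 h leaves were taken at the same hour of the cycle as the 0 h leaves but a day later. The 1 h leaves were taken 1 h later in the light, and no unchilled leaves of either later harvest were analysed here.

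Plastid omega-3 desaturases place the last double bond into fatty acids that are already bound in chloroplast membrane lipids, turning linoleic acid into alpha-linolenic acid. Leaf thylakoid membranes are rich in the trienoic product, which is also the starting material of jasmonate synthesis. Chloroplasts hold a pair of such enzymes, FAD7 and FAD8, which act on the same kind of substrate. In Arabidopsis the FAD8 transcript is known to respond to low temperature, whereas FAD7 is less dependent on it. Soybean carries each as duplicated genes, a legacy of an ancient genome duplication. The comparison of chilled with unchilled leaves therefore asks whether either pair of transcripts responds to cold within 1 h or 1 day.

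Levels are normalized read counts, the unit of the deposited table, and they are not divided by transcript length, so a level may be compared between libraries but not between genes. The library totals were 71.0 to 81.9 M normalized counts, and the spacing of the low values put the depth at an estimated 18.0 to 67.7 M reads. The highest estimate is that of the 24 h library of replicate 2, where 1 read was worth only 1.17 counts. Spacing says little at so small a step, so read numbers estimated for that library are uncertain. The 3 libraries of replicate number 3 stood apart from the other 6 at every time. For the 28537 genes averaging 100 or more, number 3 differed from the average of numbers 1 and 2 by a median of 0.82 in absolute log2 terms, compared with 0.11 between numbers 2 and 1. What libraries of one number have in common is not stated in the labels. Growth, plant material and library batch therefore cannot be told apart, and the changes of the 4 genes are given within numbers and without number 3. Each of the 9 libraries correlated best, across genes, with a library of its own number, so changes are also given with the replicate number as a block in the model. Nothing says that the libraries of a time came from separate growths, and p-values then measure only the spread between these libraries.

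The FAD7 gene Glyma18g43210 was low in replicate numbers 1 and 2 and abundant in number 3. It had 155, 247 and 3707 normalized counts at 0 h in replicates 1, 2 and 3, 296, 210 and 3920 at 1 h, and 234, 192 and 5192 at 24 h. The 3 times overlapped fully, and the division lay between the replicate numbers. At 1 h its log2 change from 0 h was 0.93 in number 1, -0.23 in number 2 and 0.08 in number 3. At 24 h the log2 change from 0 h was 0.59, -0.36 and 0.49 in the same order. In numbers 1 and 2 its levels stood for an estimated 59.6 to 164 reads, and counting alone gave the 1 h change in number 1 an error of 0.23 (SE, log2 scale). The changes of number 2 had counting errors of 0.25 at 1 h and 0.22 at 24 h, so its 1 h change was within its counting error. Numbers 1 and 2 thus had changes of opposite sign at both times. They started from 155 and 247 counts at 0 h, and both changes of a number share its 0 h library.

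The second FAD7 gene, Glyma07g18350, showed the same division between libraries. It had 248, 324 and 2505 normalized counts at 0 h in replicates 1, 2 and 3, 226, 300 and 3064 at 1 h, and 210, 276 and 3729 at 24 h. The values of the 3 times overlapped again. Numbers 1 and 2 were lower at 24 h than at 0 h, with log2 changes of -0.24 and -0.23, each with a counting error of 0.19. Number 3 was higher at 24 h, with a log2 change of 0.57 and a counting error of 0.05. In number 3 both FAD7 genes thus stood highest at 24 h, at 1.40-fold for Glyma18g43210 and 1.49-fold for Glyma07g18350 over 0 h, a pattern carried by 1 library per time.

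The FAD8 gene Glyma03g07570 varied little with time. It had 21182, 21634 and 12934 normalized counts at 0 h in replicates 1, 2 and 3, 21862, 18971 and 11573 at 1 h, and 23596, 22822 and 11467 at 24 h. Number 3 was the lowest library at each time, the reverse of its place for FAD7. The log2 change at 24 h from 0 h was 0.16 in number 1, 0.08 in number 2 and -0.17 in number 3. Between its highest and its lowest library there was a 2.06-fold span, compared with a 33.5-fold span for Glyma18g43210 and a 17.8-fold span for Glyma07g18350.

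The other FAD8 gene, Glyma01g29630, was higher in number 3 than in the others, unlike its duplicate. It had 4663, 3933 and 8816 normalized counts at 0 h in replicates 1, 2 and 3, 5729, 3856 and 7717 at 1 h, and 4906, 4293 and 7394 at 24 h. The groups overlapped at every pair of times. At 24 h the log2 change from 0 h was 0.07 in number 1, 0.13 in number 2 and -0.25 in number 3. Both FAD8 genes were therefore slightly higher at 24 h in numbers 1 and 2 and slightly lower in number 3, and Glyma07g18350 had the opposite signs in all 3 numbers. This sign pattern was noticed in the values and was not tested.

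**Figure D1:**
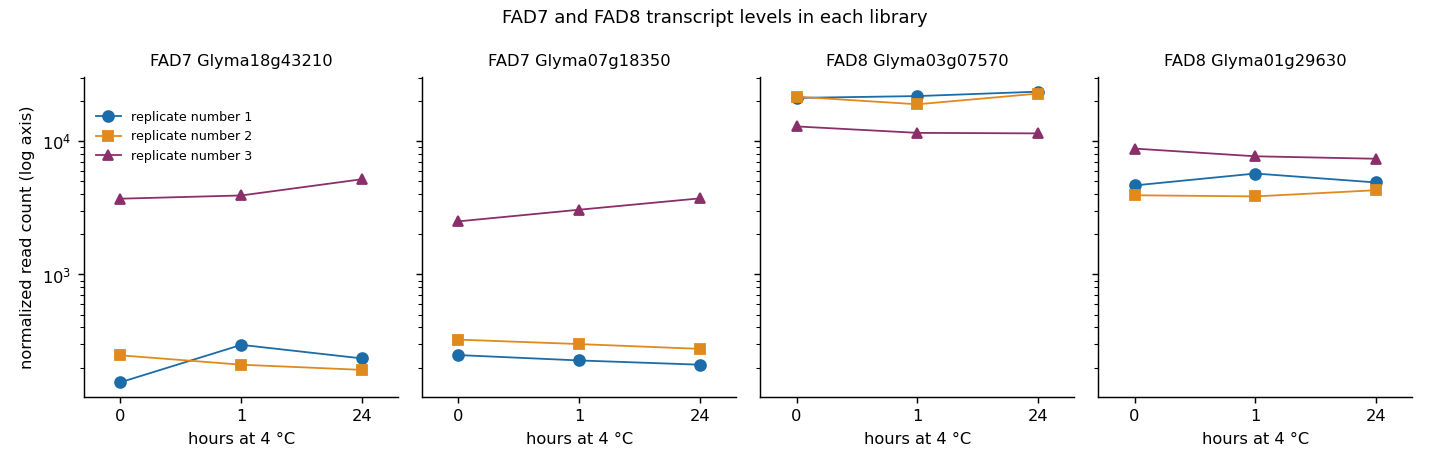
Normalized read counts (log axis) of the 4 genes against hours at 4 °C (evenly spaced, not to scale), 1 point per library, with a line and marker for each replicate number. Both FAD7 genes lie at 2505 to 5192 in replicate number 3 and at 155 to 324 in numbers 1 and 2, a wider division than any change over time within a number.

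After 1 h at 4 °C neither FAD7 nor FAD8 transcripts differed detectably from 0 h. Without the block 0 of 4 genes passed (limma, adjusted p under 0.05), beside 0% of all 38985 genes tested. With it 0 of 4 passed, beside 4.47% of all genes, which is 1742 genes, so at either share 0 of 4 is near the background. The count over all genes fell to 18 without replicate number 1, to 73 without the 1 h library of replicate 1, and to 0 without trend and robust moderation. At an unadjusted p under 0.05 the count was 0 of 4 in both fits, beside 1.38% of all genes without the block and 20.1% with it. With the block, the log2 change was 0.26 ± 0.23 for Glyma18g43210 (moderated SE, n = 3 libraries per time, limma adjusted p = 0.58), and -0.08 without replicate number 1. For Glyma07g18350 it was 0.02 ± 0.15 (limma adjusted p = 0.97). The FAD8 genes gave -0.10 ± 0.08 for Glyma03g07570 (limma adjusted p = 0.52) and 0.03 ± 0.10 for Glyma01g29630 (limma adjusted p = 0.92). Without number 3 the log2 changes with the block were 0.35 ± 0.27 for Glyma18g43210, -0.12 ± 0.16 for Glyma07g18350, -0.07 ± 0.07 for Glyma03g07570 and 0.13 ± 0.10 for Glyma01g29630, with adjusted p-values of 0.49 to 0.72 (limma, 2 libraries per time). With all 9 libraries, the median absolute log2 change was 0.06 over the 4 genes and 0.18 over all genes tested. Among genes averaging 100 or more, as the 4 genes do, it was 0.15. Without number 3 it was 0.13 over the 4 genes and 0.20 over all genes tested.

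After 24 h the answer was of the same kind, with small mean changes of mixed sign. Without the block 0 of 4 genes passed beside 0% of all genes, and with the block 0 of 4 passed beside 5.11% of all genes (limma). The 5.11% is 1993 genes, and the count fell to 42 without replicate number 1, to 225 without the 24 h library of replicate 2, and to 1 without trend and robust moderation. At an unadjusted p under 0.05 the count was 0 of 4 in both fits, beside 1.41% of all genes without the block and 19.9% with it. With the block, Glyma18g43210 had a log2 change of 0.24 ± 0.23 from 0 h (moderated SE, n = 3 per time, limma adjusted p = 0.63), higher in 2 of 3 replicate numbers. Glyma07g18350 was at 0.03 ± 0.15 (limma adjusted p = 0.93), higher in 1 of 3. Of the FAD8 genes, Glyma03g07570 was at 0.02 ± 0.08 (limma adjusted p = 0.93) and Glyma01g29630 at -0.02 ± 0.10 (limma adjusted p = 0.95). Without number 3 the log2 changes with the block were 0.11 ± 0.27 for Glyma18g43210, -0.23 ± 0.16 for Glyma07g18350, 0.12 ± 0.07 for Glyma03g07570 and 0.10 ± 0.10 for Glyma01g29630, with adjusted p-values of 0.40 to 0.87 (limma, 2 libraries per time). The comparisons at 1 h and at 24 h share the 0 h libraries.

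Between 24 h and 1 h in the cold, 0 of 4 genes passed with or without the block, beside 0% of all genes in each fit (limma, 0 of 4 at an unadjusted p under 0.05 in both fits). Of all genes tested, 5.67% had an unadjusted p under 0.05 with the block and 0.174% without it. The mean log2 changes with the block were -0.02 ± 0.23 for Glyma18g43210, 0.02 ± 0.15 for Glyma07g18350, 0.12 ± 0.08 for Glyma03g07570 and -0.04 ± 0.10 for Glyma01g29630 (moderated SE, n = 3 per time). The lowest adjusted p among them was 0.91 (limma), for Glyma03g07570. That gene was at 23596 and 22822 normalized counts at 24 h in replicates 1 and 2, against 21862 and 18971 at 1 h. Without replicate number 3 its log2 change was 0.19 ± 0.07 (moderated SE, 2 libraries per time, limma adjusted p = 0.40 with the block, unadjusted p = 0.023). In that fit 1 of 4 genes had an unadjusted p under 0.05, beside 3808 of all 38985 genes tested (limma). Without number 3 the other genes were at -0.23 ± 0.27 for Glyma18g43210, -0.11 ± 0.16 for Glyma07g18350 and -0.03 ± 0.10 for Glyma01g29630 (limma adjusted p of 0.87 to 0.95).

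**Figure D2:**
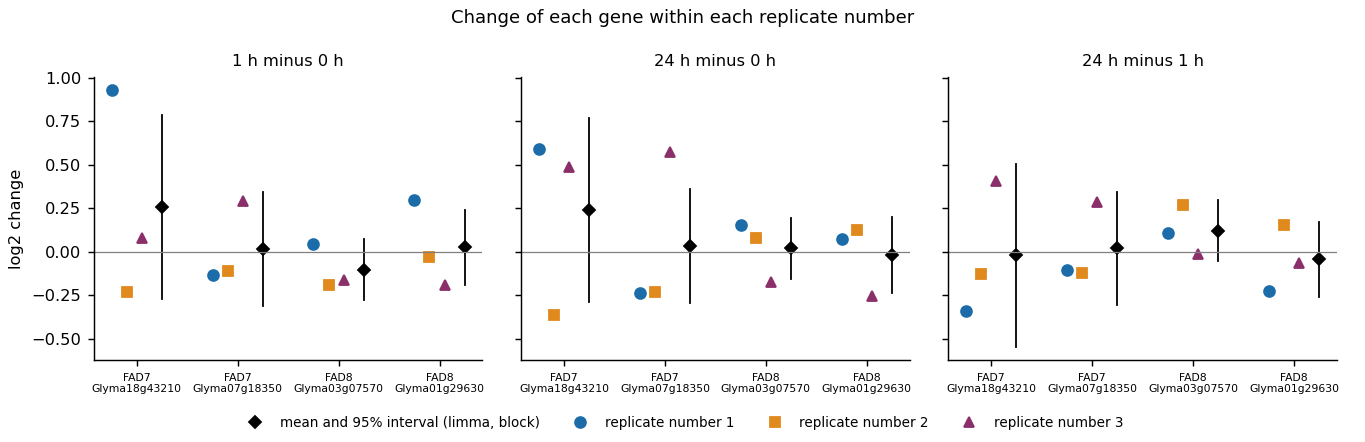
Log2 change of each gene between times within each replicate number (coloured markers), with the mean and its 95% interval from limma with the replicate number as a block (black diamonds and bars). All 12 intervals include 0, and the 3 replicate numbers differ in sign in each of them.

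The intervals set how large an undetected mean difference between harvests could be. That difference includes the later hour or day of harvest as well as the cold. With the block, the interval assumes a change common to the replicate numbers. With the block, the 95% interval of the 24 h change reached from 0.90-fold to 1.14-fold for the FAD8 gene Glyma03g07570 and from 0.85-fold to 1.15-fold for Glyma01g29630. A 2-fold change of either FAD8 transcript at 1 h or 24 h lay outside its interval with the block. The FAD7 genes were less well bounded, at 0.82-fold to 1.70-fold for Glyma18g43210 and 0.82-fold to 1.28-fold for Glyma07g18350 at 24 h. Without the block, when the division between the replicate numbers counts as error, the intervals at 24 h were 0.55-fold to 1.88-fold for Glyma03g07570 and 0.06-fold to 22.0-fold for Glyma18g43210. The FAD7 interval without the block thus excludes little. Without number 3, the block fit at 24 h gave 0.97-fold to 1.21-fold for Glyma03g07570, 0.92-fold to 1.25-fold for Glyma01g29630, 0.66-fold to 1.09-fold for Glyma07g18350 and 0.70-fold to 1.67-fold for Glyma18g43210. The intervals rest on 3 libraries per time, or 2 without number 3, and do not show that the transcripts were unaffected.

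The replicate number accounted for nearly all of the variation of these genes. Its share of the total sum of squares (log2 scale) was 98.3% in Glyma18g43210, 99.1% in Glyma07g18350, 95.5% in Glyma03g07570 and 93.9% in Glyma01g29630, and the share of time was at most 1.65%. These shares were not computed for other genes. Number 3 stood apart across the table, so high shares are not shown to be particular to these genes. Whole leaves were sequenced, so fewer cells with a transcript and less of it per cell cannot be told apart. Averaged over the 3 times, Glyma18g43210 was 19.3-fold and Glyma07g18350 11.7-fold higher in number 3 than in the mean of numbers 1 and 2. At the separate times the difference was 18.9-fold, 15.7-fold and 24.4-fold for Glyma18g43210 at 0, 1 and 24 h, and 8.81-fold, 11.7-fold and 15.4-fold for Glyma07g18350. Among the 28537 genes averaging 100 or more, 5.78% were more than 8-fold higher in number 3, and both FAD7 genes were among them. Only 2.94% exceeded the difference of Glyma18g43210 on that side, and 4.26% that of Glyma07g18350.

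The FAD8 genes differed less between the replicate numbers, and in opposite directions. Averaged over the times, Glyma03g07570 was at 0.554-fold in number 3 of its level in numbers 1 and 2, and Glyma01g29630 at 1.76-fold. Absolute differences larger than these were found in 48.7% and 50.5% of genes, so both FAD8 genes lay near the middle of the table. The direction held at each time. Glyma03g07570 had log2 differences of -0.73, -0.82 and -1.02 at 0, 1 and 24 h, and Glyma01g29630 of 1.04, 0.72 and 0.69. Numbers 2 and 1 differed by at most 0.57 on the log2 scale in either FAD8 gene at any time. These differences follow a library label and not a treatment, so no test was made of them.

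**Figure D3:**
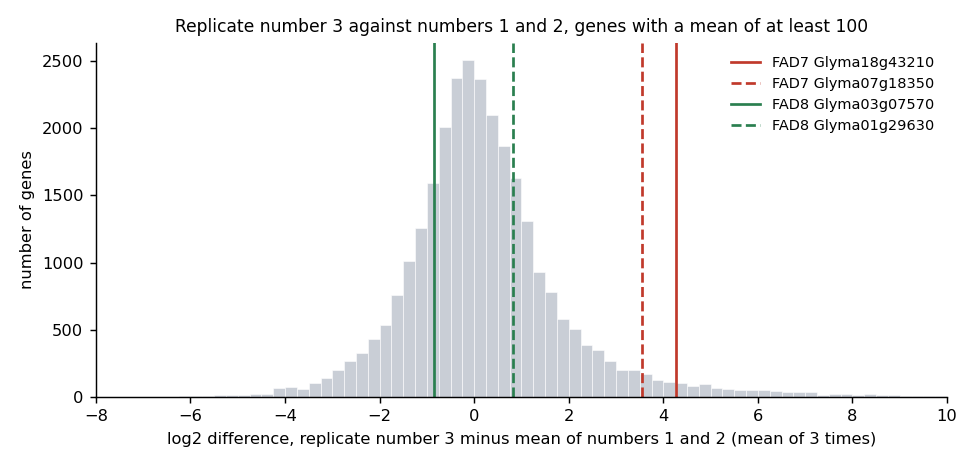
Distribution, across genes averaging 100 or more, of the log2 difference of replicate number 3 from the average of numbers 1 and 2 (taken over 0, 1 and 24 h; bars count genes, and 2 genes lie beyond the right edge). The FAD7 genes lie in the right tail at 4.27 and 3.55, and the FAD8 genes at -0.85 and 0.81, inside the bulk.

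The balance between the families differed between the replicate numbers while their summed level spanned a narrow range. In number 3 the FAD7 genes together had 6212, 6984 and 8921 normalized counts at 0, 1 and 24 h. In number 1 they had 403, 522 and 444, and in number 2 571, 510 and 468. The FAD8 genes together had 21750, 19290 and 18861 in number 3, 25845, 27591 and 28502 in number 1, and 25567, 22827 and 27115 in number 2. The sum of all 4 genes ran from 23337 to 28946 over the 9 libraries, a 1.24-fold span, against a 22.1-fold span for the FAD7 sum and a 1.51-fold span for the FAD8 sum. The sum of counts is weighted toward the longer and the more abundant transcripts, and Glyma03g07570 had the highest count of the 4 in every library. The narrow span of the sum was noticed in the values. It was not tested or compared with sums of other genes.

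The log2 ratio of the FAD8 sum to the FAD7 sum, in which sequencing depth cancels, gave the same division. It was 1.81, 1.47 and 1.08 at 0, 1 and 24 h in number 3, 6.00, 5.72 and 6.00 in number 1, and 5.48, 5.48 and 5.85 in number 2. From 0 h to 24 h the ratio changed by 0.00 in number 1, 0.37 in number 2 and -0.73 in number 3. The mean change was -0.12 ± 0.56 (SD, n = 3 replicate numbers), which is smaller than its spread. Within the FAD8 pair, the log2 ratio of Glyma03g07570 to Glyma01g29630 was 0.55 to 0.63 over the 3 times in number 3 and 1.93 to 2.46 in numbers 1 and 2. It changed by 0.04 ± 0.08 between 24 h and 0 h (SD, n = 3). Within the FAD7 pair, the log2 ratio of Glyma18g43210 to Glyma07g18350 was 0.36 to 0.57 in number 3, and ran from -0.67 to 0.39 in numbers 1 and 2. Between 24 h and 0 h it changed by 0.83 in number 1, -0.13 in number 2 and -0.09 in number 3. The mean of 0.20 ± 0.54 (SD, n = 3) rested on number 1 and was -0.11 without it. Nothing in the sources says whether reads shared by near-identical duplicates were divided or dropped, so the split within a pair is less certain than the pair's sum.

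**Figure D4:**
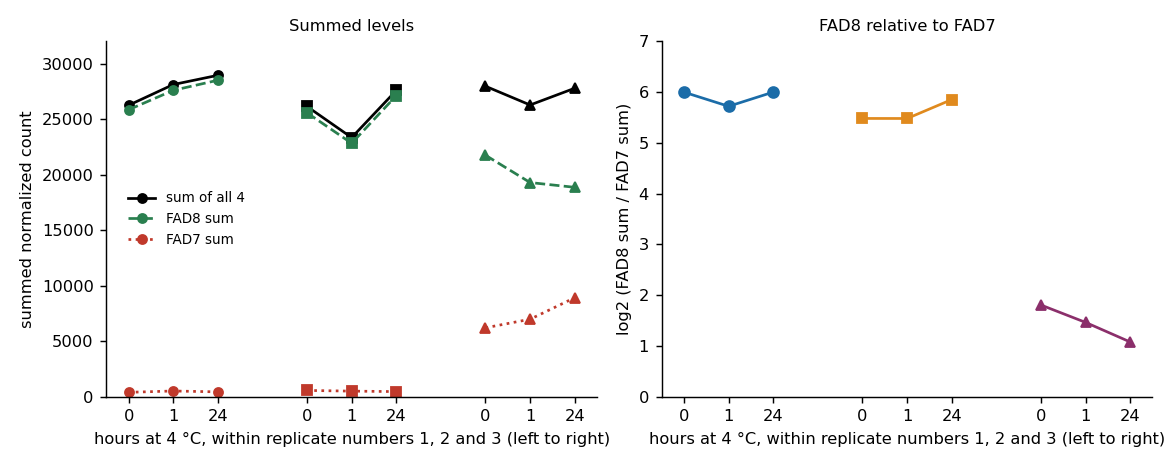
Left, summed normalized counts of FAD7, FAD8 and all 4 genes in the 9 libraries, ordered by hours at 4 °C within replicate numbers 1, 2 and 3; right, the log2 ratio of the FAD8 sum to the FAD7 sum in the same order. The sum of all 4 stays between 23337 and 28946, while the ratio is 1.08 to 1.81 in number 3 and 5.48 to 6.00 in numbers 1 and 2.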

How the data were processed

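RNA-seq of 9 leaf libraries was analysed from 1 table. Libraries were made from total RNA with an Illumina TruSeq kit, per the labels' protocols. The deposited values are scores: read counts that the authors normalized and rounded to whole numbers, as the table's name and its values show. Cutadapt 1.2.1 and DESeq 1.12 are listed in the submitters' processing notes, which do not say what each was used for. Aligner, counter, build and annotation are not given in the sources used here. Low scores (1 to 40) fell on steps worth 1.17 to 4.15 per read for 83.3% to 95.9% of them, with a minority off the steps. Steps near the low end cover most whole numbers, so a high share says little there. Whole reads were therefore not recovered, no count test was run, and depth is an estimate.

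Values were analysed as log2(value + 1), which understates changes of low genes, for the 38985 genes averaging 10 or more, all 4 members included. Limma 3.58.1 in R 4.3.3 (trend and robust moderation, two-sided, Benjamini-Hochberg adjustment over all these genes) was fitted to all 9 libraries, with time only and, as an alternative, with the replicate number as a block. The script was tested on simulated data. Same-numbered libraries deviated together from their group means (correlations across genes of 0.69 to 0.95), so the data, not the labels, give the pairing. Other tables used Python 3.11.15. Alternatives covered pseudocounts, filters, scalings, moderation and left-out libraries.

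The identifiers were matched to a RefSeq table (Glycine_max v4.0), and 0 of 49777 matched. Other genes of the pathway could therefore not be listed, and coordinates, promoter and protein sequences are not used here. That table lists genes named FAD7-1, FAD7-2, FAD8.2 and FAD8-1 on chromosomes 18, 7, 3 and 1, the same chromosome numbers as in the 4 identifiers. Genes named beyond the 4 were, for each, the 3 with the highest Pearson correlation over the 9 libraries after removing each replicate number's mean. The members and tests were chosen with earlier results of these data known.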

Additional observations from a re-analysis of the deposited data

How the results depend on the processing

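No adjusted p of the 4 genes fell below 0.198 (limma) in any of the 44 settings run, 22 of them with the replicate block, so 0 of 4 genes was called in each comparison throughout. The share of all genes called was 0% to 0.331% over the settings without the block and 0% to 7.59% over those with it, so few or no calls among 4 genes would be near the background in any of them. The block changed no call. With all 9 libraries it cannot alter the mean changes, because each replicate number occurs once at each time. Signs of changes near 0 did depend on scaling, with and without the block. Equal library totals gave log2 changes of -0.00486 for Glyma07g18350 and -0.0200 for Glyma03g07570 at 24 h against 0 h, and -0.0826 for Glyma07g18350 at 24 h against 1 h. Quantile normalization gave -0.000785 for Glyma07g18350 at 1 h, -0.00594 for Glyma03g07570 at 24 h against 0 h, and 0.000143 for Glyma18g43210 at 24 h against 1 h. Equal totals put the median of all genes at -0.10 between 24 h and 1 h.

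Leaving out 1 library, or the 3 libraries of 1 number, moved the changes most without the block, where a removal also shifts the balance between numbers. For 1 h against 0 h the log2 changes then ran from -1.06 to 1.67 in Glyma18g43210, -1.17 to 1.06 in Glyma07g18350, -0.34 to 0.17 in Glyma03g07570 and -0.21 to 0.37 in Glyma01g29630. For 24 h against 0 h they ran from -1.30 to 1.65, -1.28 to 1.08, -0.22 to 0.36 and -0.25 to 0.33 in the same genes. For 24 h against 1 h they ran from -1.56 to 1.30, -1.30 to 1.203, -0.15 to 0.46 and -0.31 to 0.19. With the block the ranges were narrower, at 24 h against 0 h -0.02 to 0.54, -0.23 to 0.17, -0.05 to 0.12 and -0.11 to 0.10, and no call was made. The FAD8 to FAD7 ratio changed between 24 h and 0 h by 0.19 without number 3 and by -0.36 without number 2; leaving out numbers for the ratios was added after the data were seen. As whole reads could not be recovered, the planned count tests were not run. Depth limits the FAD7 genes in numbers 1 and 2, at 59.6 to 235 estimated reads.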

Other observations

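Genes whose course over the 9 libraries was most like that of a member, once each replicate number's mean was removed, were searched among 28537 genes with a mean of at least 100. For Glyma18g43210 they were Glyma17g13580 (Pearson r = 0.994 over 9 libraries), Glyma13g10760 and Glyma02g11800, and for Glyma07g18350 they were Glyma14g14010 (0.986), Glyma08g46950 and Glyma01g43100. For Glyma03g07570 they were Glyma04g31180 (0.994), Glyma05g33510 and Glyma17g33020, and for Glyma01g29630 they were Glyma04g06970 (0.989), Glyma15g09530 and Glyma07g02170. These values are the highest of a search over many genes with few libraries, and 57 to 173 genes reached 0.9 for a member. By the same measure the FAD8 pair correlated at 0.54, the FAD7 pair at 0.28, and Glyma07g18350 with Glyma03g07570 and Glyma01g29630 at -0.63 and -0.68. None of the other 3 members was among the genes most like a member.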
